A study of Mus musculus with 12 samples.

Results

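The genes of fatty acid and triglyceride synthesis were followed in primary mouse hepatocytes, as 31 genes listed by symbol among the 19035 genes and accessions tested on the arrays. The probes of a gene were those whose RefSeq accession carried its symbol, and the brightest of them stood for the gene. Of the 31 genes, 29 passed the filter on dim probes, and their probes were well above background on all 12 arrays. The other 2 were Acacb, the acetyl-CoA carboxylase isoform of the mitochondrial surface, and Pnpla3, a lipid droplet lipase. The Acacb probe was above background on 1 of 12 arrays, the second +/+ control array. The Pnpla3 probe was above background on 4, which were -/- shTLS array 2, -/- control arrays 2 and 3 and +/+ control array 3, so no difference is given for either gene.

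The hepatocytes came from C57BL/6 mice that lacked PGC-1alpha (-/-) or carried it (+/+), and were infected with adenovirus that encoded either a short hairpin RNA targeting TLS (shTLS) or a control hairpin. The groups were -/- shTLS, -/- control, +/+ shTLS and +/+ control, with 3 arrays each. Every shTLS culture had a control culture from the same mouse, and there were 3 mice per genotype and 6 in all. All groups shared the virus dose (multiplicity of infection 5), the harvest at 24 h after infection and a serum medium with 100 nM dexamethasone and 100 nM insulin. The labels give neither age nor sex, nor which part of the PGC-1alpha gene is missing. The 4 arrays with the same replicate number lay on 1 slide, where a group kept its position throughout, so the effect of position cannot be told apart from that of the group.

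In hepatocytes, citrate exported from mitochondria is split to acetyl-CoA, which is carboxylated to malonyl-CoA and condensed to palmitate at the expense of NADPH. Elongases and desaturases turn palmitate into longer and unsaturated fatty acids, and acyltransferases esterify these stepwise onto glycerol-3-phosphate until triglyceride is formed and stored in droplets. Insulin acts on the pathway largely through the transcription factor SREBP-1c, and glucose through ChREBP. PGC-1alpha is a transcriptional coactivator best known in liver for gluconeogenic and mitochondrial genes.

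Levels and differences are given on the log2 scale of the deposited quantile-normalized values. The probe of Ppargc1a, the gene of PGC-1alpha, differed between -/- and +/+ cells by -0.52 with shTLS and 0.17 with the control hairpin, and it checks nothing about the genotype since the deleted part is not given in the labels.

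The 75th percentile of the unnormalized signal was 343.5 to 634.6 on the 6 shTLS arrays and 810.4 to 1064 on the 6 control arrays, a difference that quantile normalization removes. When arrays were instead scaled to the spike-in controls, the median of all genes shifted by -0.81 averaged over genotypes (-0.79 in -/- cells, -0.83 in +/+ cells), and under scaling to the 75th percentile it was 0.09. All shTLS differences below are therefore relative to the bulk of genes on the array, and their precision is limited by the number of arrays.

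The first comparison asked what shTLS did to the pathway over both genotypes. Relative to control, 4 of the 29 measured genes fell and 0 rose, while 3.1% of all genes tested fell and 5.15% rose (limma, Benjamini-Hochberg adjusted p under 0.05). The 4 were Scd2, a stearoyl-CoA desaturase, Agpat2, an acyltransferase of the glycerolipid pathway, Srebf1, the gene of SREBP-1, and Elovl1, an elongase of very long chain fatty acids. Scd2 fell by 1.57 on the log2 scale (2.96-fold), Agpat2 fell by 0.81 (1.76-fold), Srebf1 fell by 0.77 (1.70-fold) and Elovl1 fell by 0.72 (1.64-fold). With the replicate number as a block, which takes out differences between the 3 slides and assays, 10 of 29 fell, among them these 4, beside 13.7% of all genes. With the mouse as a block, which compares the 2 cultures of each mouse, 12 of 29 fell, beside 16% of all genes.

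With shTLS 26 of 29 genes had a negative averaged difference, beside 51% of all genes tested, and the median was -0.46, beside -0.016 for all genes. By mouse, the median over the 29 genes was -0.43, -0.41 and -0.51 in -/- mice 1, 2 and 3, and -0.55, -0.32 and -0.53 in +/+ mice 1, 2 and 3. Between 23 and 26 of the 29 genes were negative in each mouse. Differences were negative in all 6 mice for 15 of 29 genes, beside 18.9% of all genes tested, and positive in all 6 for 0, beside 19.4%. An unadjusted p under 0.05 was found for 10 of 29 genes, all lower, beside 13.2% of all genes. The median was -0.35 under 75th percentile scaling, beside 0.09 for all genes, and -1.25 under spike-in scaling, beside -0.81. With spike-in scaling all 29 genes were negative, as were 16571 of the 19035 genes tested.

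**Figure D1:**
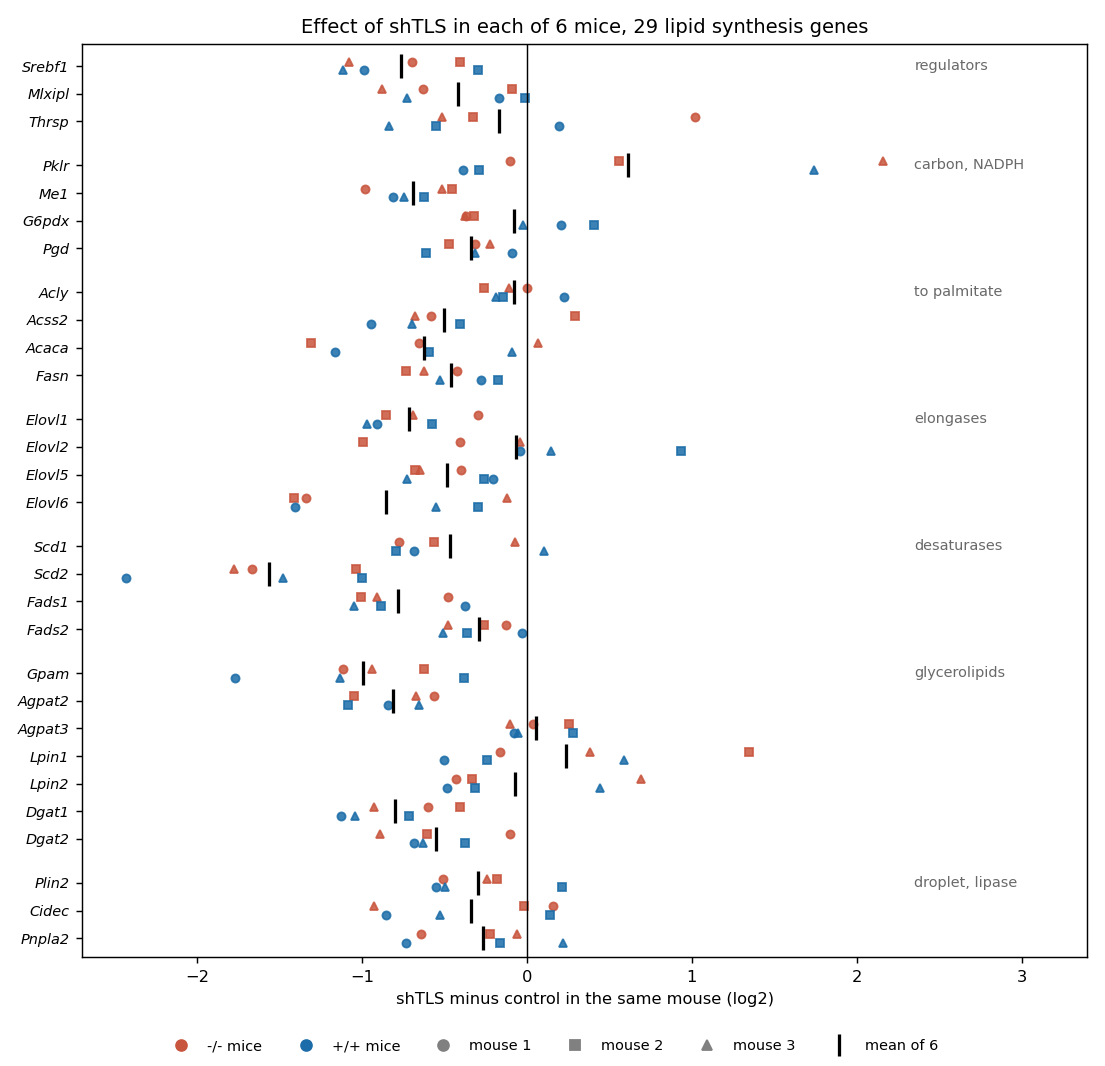
Log2 difference between the shTLS and the control culture of the same mouse for the 29 measured genes, grouped by role, with -/- mice in red and +/+ mice in blue, symbols for mice 1 to 3 of each genotype and a black bar for the mean of 6. Most symbols lie left of 0: 26 of 29 means are negative, 15 genes are negative in all 6 mice, and Pklr, Lpin1 and Agpat3 have positive means of 0.61, 0.24 and 0.05.

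Among the 3 measured regulators 1 fell. Srebf1, whose product switches on most genes of the pathway, read 13.26, 13.45 and 12.59 in -/- shTLS cells against 13.96, 13.86 and 13.67 in -/- control cells. In +/+ cells it read 12.87, 13.26 and 12.66 with shTLS against 13.86, 13.56 and 13.78 with the control hairpin. All shTLS cultures lay below all control cultures of their genotype, with the smallest differences in mouse 2 of each genotype. The averaged difference had an SE of 0.197 and an adjusted p of 0.0404 (limma; 0.00978 with the replicate block).

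Mlxipl, the gene of ChREBP, read lower in all 6 mice, by 0.02 to 0.88, with an averaged difference of -0.42 (limma adjusted p = 0.211). Thrsp, a small nuclear protein known to respond to thyroid hormone and carbohydrate, was mixed at -0.17, with values of 1.02 in -/- mouse 1 and 0.19 in +/+ mouse 1 and negative values in the other 4 mice.

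The 4 genes that supply carbon and NADPH did not change together, and 0 passed without the block (limma, 0 with an unadjusted p under 0.05). Me1, cytosolic malic enzyme, read 11.61, 12.48 and 11.49 in -/- shTLS cells against 12.59, 12.94 and 12.01 in -/- control cells. It read 12.06, 13.68 and 11.99 in +/+ shTLS cells against 12.88, 14.30 and 12.74 in +/+ control cells. The groups overlapped because mouse 2 read high in every group, yet Me1 was lower in all 6 mice, by 0.46 to 0.98, and its averaged difference of -0.69 passed with the replicate block (limma adjusted p = 0.0216, against 0.27 without it).

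Of the pentose phosphate enzymes, Pgd read lower in all 6 mice (averaged difference -0.34, and -0.19 under 75th percentile scaling) and G6pdx read -0.08, with 3 negative values in -/- mice and 1 in +/+ mice. A dimmer second Pgd probe read -0.44 in -/- cells and -0.41 in +/+ cells. Pklr, liver pyruvate kinase, had the highest averaged difference of the list, 0.61 (limma adjusted p = 0.354), which became -0.27 under spike-in scaling. It read 8.55, 9.74 and 9.41 in -/- shTLS cells against 8.65, 9.18 and 7.25 in -/- control cells, and 8.47, 9.26 and 9.48 in +/+ shTLS cells against 8.86, 9.55 and 7.74 in +/+ control cells. The positive mean came mainly from mouse 3 of each genotype, where the control culture was the lowest of its group and the differences were 2.16 in the -/- mouse and 1.74 in the +/+ mouse.

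The 4 measured enzymes from cytosolic acetyl-CoA to palmitate read -0.08 for Acly, ATP citrate lyase, -0.50 for Acss2, which activates acetate, -0.63 for Acaca, acetyl-CoA carboxylase 1, and -0.46 for Fasn, fatty acid synthase. None passed without the block, and 3 had an unadjusted p under 0.05, all lower (limma). Acss2 read 8.47, 9.29 and 8.32 in -/- shTLS cells against 9.05, 9.0 and 9.01 in -/- control cells, and 8.71, 9.29 and 8.62 in +/+ shTLS cells against 9.66, 9.69 and 9.32 in +/+ control cells. Its groups did not overlap in +/+ cells and overlapped in -/- cells, where mouse 2 was 0.29 higher with shTLS. It passed with the replicate block (limma adjusted p = 0.0452, against 0.153 without it), and not with the mouse as a block (0.0633). A dimmer second Acss2 probe read -0.61 (SE 0.187).

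Fasn read 14.99, 15.09 and 14.52 in -/- shTLS cells against 15.42, 15.82 and 15.15 in -/- control cells, and 14.61, 14.19 and 14.55 in +/+ shTLS cells against 14.89, 14.36 and 15.08 in +/+ control cells. It was lower in all 6 mice, by 0.17 to 0.74, without overlap in -/- cells, and passed with the mouse as a block (limma adjusted p = 0.0296) but not otherwise (0.171, and 0.114 with the replicate block). A dimmer second Fasn probe read 0.06, so the 2 probes of this gene disagree. The Fasn difference was -0.28 under 75th percentile scaling. Acaca read between 6.39 and 7.98 on the 12 arrays and was lower in 5 of 6 mice, and its difference was -0.39 with normexp background correction.

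Of the 4 elongases Elovl1 fell. It read 12.76, 12.56 and 12.54 in -/- shTLS cells against 13.06, 13.41 and 13.23 in -/- control cells, and 12.37, 12.33 and 12.48 in +/+ shTLS cells against 13.28, 12.91 and 13.45 in +/+ control cells. The shTLS cultures lay close together and below every control culture (SE 0.16, limma adjusted p = 0.0246, and 0.00794 with the replicate block). Elovl6, which elongates palmitate to stearate, had a larger averaged difference of -0.86 and was lower in all 6 mice, but its values ranged from -1.41 in -/- mouse 2 to -0.12 in -/- mouse 3 (limma adjusted p = 0.207, and 0.0315 with the mouse as a block).

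Elovl5, an elongase of polyunsaturated fatty acids, was lower in all 6 mice as well, at -0.49 (limma adjusted p = 0.402, and 0.0312 with the mouse as a block), and its second probe read -0.32. Elovl2, which acts on longer polyunsaturated chains, read -0.07 on average, with -0.41, -1.0 and -0.04 in -/- mice and -0.04, 0.93 and 0.14 in +/+ mice, so that it was negative in 4 of 6 mice.

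The desaturases held the gene with the largest fall of the list. Scd2 read 10.54, 11.07 and 9.17 in -/- shTLS cells against 12.21, 12.10 and 10.95 in -/- control cells, and 8.76, 9.78 and 9.27 in +/+ shTLS cells against 11.20, 10.79 and 10.74 in +/+ control cells. It was lower in all 6 mice, with differences of -2.44 to -1.0, and its groups overlapped only in -/- cells, where mouse 3 read low in both cultures (SE 0.357, limma adjusted p = 0.0265, and 0.00511 with the replicate block). Scd1, the main stearoyl-CoA desaturase of adult liver, read -0.47 (limma adjusted p = 0.241), with values near 0 in mouse 3 of each genotype.

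Fads1, the delta-5 desaturase of polyunsaturated fatty acids, read 9.96, 9.09 and 9.56 in -/- shTLS cells against 10.44, 10.097 and 10.47 in -/- control cells, and 10.01, 8.92 and 9.72 in +/+ shTLS cells against 10.39, 9.80 and 10.78 in +/+ control cells. The groups overlapped in +/+ cells only, and all 6 mice were lower, by 0.37 to 1.05. Its difference of -0.78 passed with the replicate block (limma adjusted p = 0.0073, against 0.0825 without it). Fads2, the delta-6 desaturase, was lower in all 6 mice by smaller amounts, at -0.29 (limma adjusted p = 0.378). These 4 desaturases and Gpam, described next, make up the 5 measured genes of the list on chromosome 19.

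**Figure D2:**
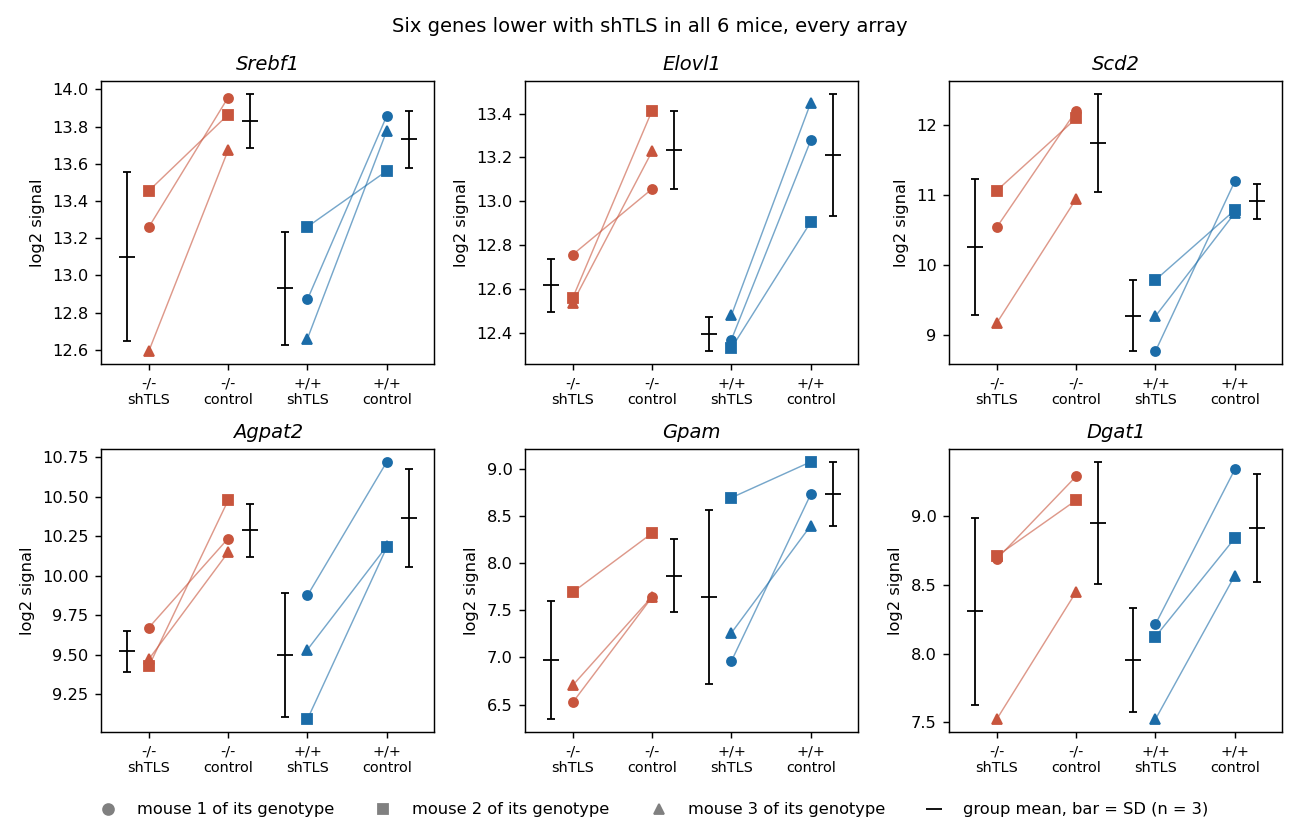
Log2 signal of Srebf1, Elovl1, Scd2, Agpat2, Gpam and Dgat1 on each array, with lines joining the shTLS and the control culture of a mouse and bars for the group mean ± SD (n = 3). Every line runs upward from shTLS to control, and in Srebf1, Elovl1 and Agpat2 the groups do not overlap in either genotype.

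Glycerolipid assembly had 7 genes, of which 1 fell without the block and 4 with the replicate block. Gpam, the mitochondrial acyltransferase of the first step, read 6.52, 7.69 and 6.70 in -/- shTLS cells against 7.64, 8.32 and 7.64 in -/- control cells, and 6.96, 8.69 and 7.26 in +/+ shTLS cells against 8.73, 9.07 and 8.40 in +/+ control cells. The groups overlapped since mouse 2 read highest in each of them, and all 6 mice were lower, by 0.38 to 1.77. The averaged difference of -0.99 passed with the replicate block (limma adjusted p = 0.00546, against 0.087 without it), and it was -0.62 with normexp background correction.

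Agpat2, the enzyme of the second acylation, read 9.67, 9.43 and 9.47 in -/- shTLS cells against 10.24, 10.48 and 10.15 in -/- control cells, and 9.88, 9.09 and 9.53 in +/+ shTLS cells against 10.72, 10.18 and 10.19 in +/+ control cells. No shTLS culture reached a control culture (SE 0.19, limma adjusted p = 0.0289, and 0.00657 with the replicate block), and a second probe also read -0.81. Agpat3, a related acyltransferase, read 0.05 and became -0.69 under spike-in scaling, and its second probe read -0.65.

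Dgat1 and Dgat2, the unrelated enzymes of the last step to triglyceride, were lower in all 6 mice. Dgat1 read 8.69, 8.71 and 7.52 in -/- shTLS cells against 9.29, 9.11 and 8.45 in -/- control cells, and 8.21, 8.12 and 7.52 in +/+ shTLS cells against 9.34, 8.84 and 8.57 in +/+ control cells. Its groups overlapped only in -/- cells, where mouse 3 read low, and its difference of -0.80 passed with the replicate block (limma adjusted p = 0.00507, against 0.093 without it). The second probe read -0.86.

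Dgat2 read 15.29, 16.05 and 14.16 in -/- shTLS cells against 15.39, 16.66 and 15.05 in -/- control cells, and 14.80, 15.32 and 14.10 in +/+ shTLS cells against 15.48, 15.70 and 14.73 in +/+ control cells. The groups overlapped widely, since mice differed more than vectors did. Its averaged difference of -0.55 passed with the replicate block (limma adjusted p = 0.0425, against 0.385 without it), and its other probes read -0.87 and -0.18. It was -0.32 under 75th percentile scaling.

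The lipins, phosphatidic acid phosphatases that give diacylglycerol, did not share this pattern. Lpin1 read 0.24, or -0.61 under spike-in scaling, with 1.35 in -/- mouse 2 and negative values in 3 of 6 mice, and its other probes read 0.27 and 0.23. Lpin2 read -0.07, with positive values in mouse 3 of each genotype (0.69 in the -/- mouse, 0.44 in the +/+ mouse) and negative values in the other 4.

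At the droplet, 0 of 3 genes passed with or without a block, and by the brightest probe of each gene 0 had an unadjusted p under 0.05 without one (limma). Plin2, the coat protein of hepatocyte lipid droplets, had an averaged difference of -0.30, which turned to 0.15 under 75th percentile scaling. Cidec, a protein of droplet fusion, read -0.34, and Pnpla2, adipose triglyceride lipase, read -0.27 (SE 0.278). A dimmer second Pnpla2 probe, also above background on all 12 arrays, read -0.73 (SE 0.31). By their brightest probes each was negative in 4 or 5 of 6 mice.

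Promoter windows of 300 bases, from 250 before to 50 after a transcript start, were taken from RefSeq (GRCm38.p6) and were in the table for 26 of the 31 genes, while Fads1, Dgat1, Dgat2, Scd1 and Scd2 had none there. Each window was searched on both strands for 4 motifs by their exact letters, so elements spelled otherwise were not counted. The E-box CACGTG was in windows of 4 of 26 genes (15.4%, beside 8.09% of all genes with a window), and the sterol regulatory element TCACNCCAC in 1, Mlxipl (3.85% beside 1.44%). CCAAT, the letters bound by NF-Y, was found in 16 (61.5% beside 41.1%), and the GC box GGGCGG, the letters bound by Sp1, in 16 (61.5% beside 38.2%). A gene was counted if any of its windows held the letters, so genes with several windows count more easily, and the 26 genes have 38 windows. By window, CCAAT was in 17 of 38, beside 37.4% of all windows, and the GC box in 19 of 38, beside 35.7% of all windows. The E-box was in 4 of 38, beside 7.15% of all windows, and the sterol regulatory element in 1 of 38, beside 1.24%. A match is a description of letters and not a binding site. The windows of the 3 genes that fell without the block and have one are printed 5′ to 3′ on the gene's strand. Capitals show only the letters of the 4 motifs searched. Srebf1 has 3 windows and Elovl1 has 2, and the one with both a CCAAT box and GC boxes is given.
Srebf1, chr11:60210422-60210721, minus strand, 1 CCAAT box (as ATTGG) and 2 GC boxes: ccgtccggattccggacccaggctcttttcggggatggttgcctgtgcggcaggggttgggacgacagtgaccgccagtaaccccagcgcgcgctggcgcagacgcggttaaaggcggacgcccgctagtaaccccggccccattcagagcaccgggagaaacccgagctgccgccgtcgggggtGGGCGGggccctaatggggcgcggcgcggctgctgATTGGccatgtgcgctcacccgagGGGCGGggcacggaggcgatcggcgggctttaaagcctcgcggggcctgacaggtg
Elovl1, chr4:118427843-118428142, plus strand, 1 CCAAT box that shares 2 letters with a GC box (as CCGCCC), and 5 GC boxes in all: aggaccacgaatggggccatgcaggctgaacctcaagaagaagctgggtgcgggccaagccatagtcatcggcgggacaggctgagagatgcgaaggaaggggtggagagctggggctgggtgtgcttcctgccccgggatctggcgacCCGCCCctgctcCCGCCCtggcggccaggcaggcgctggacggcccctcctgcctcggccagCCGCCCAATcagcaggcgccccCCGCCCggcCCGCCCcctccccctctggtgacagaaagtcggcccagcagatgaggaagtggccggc
Agpat2, chr2:26604368-26604667, minus strand, 3 GC boxes, of which 2 share a letter, and 0 CCAAT boxes: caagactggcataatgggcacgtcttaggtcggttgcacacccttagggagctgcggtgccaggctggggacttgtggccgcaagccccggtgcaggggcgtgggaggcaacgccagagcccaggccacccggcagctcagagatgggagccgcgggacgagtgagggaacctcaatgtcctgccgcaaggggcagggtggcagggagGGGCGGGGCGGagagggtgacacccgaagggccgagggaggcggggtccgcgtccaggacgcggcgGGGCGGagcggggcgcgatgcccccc

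The 4 calls of the averaged comparison depended on single arrays. None passed without -/- control array 2, +/+ control array 1 or +/+ shTLS array 3. Elovl1 alone passed without -/- control array 1, Scd2 alone without -/- shTLS array 3, and Scd2 and Srebf1 without -/- shTLS array 2. Srebf1 was lost without +/+ control array 3 or +/+ shTLS array 1, and without +/+ shTLS array 2 Gpam passed and Agpat2 did not. The directions of the 10 genes that passed with the replicate block were negative under all 21 alternatives, and the call was kept under 17 for Scd2, 16 for Elovl1 and 14 each for Srebf1 and Agpat2.

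Within each genotype the effect of shTLS was tested on 3 mice, and 0 of 29 genes passed in either of them (limma, without the block). In -/- cells 25 of 29 differences were negative, beside 51.8% of all genes, with a median of -0.48, and 4 had an unadjusted p under 0.05, all lower, beside 4.85% of all genes. There 0.993% of all genes passed, 0.042% lower and 0.951% higher. With the replicate block 0 of 29 passed, beside 1.84% of all genes lower. With the mouse taken as a block Scd2 was the 1 gene that fell (adjusted p = 0.0333, beside 3.14%).

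In +/+ cells 25 of 29 differences were negative, beside 50.4% of all genes, with a median of -0.40, and 7 had an unadjusted p under 0.05, all lower, beside 7.19% of all genes. There 1.2% of all genes passed, 0.179% lower and 1.02% higher. With the replicate block Scd2, Elovl1, Gpam, Agpat2 and Dgat1 fell, 5 of 29 beside 5.03% of all genes lower. Taking the mouse as the block added Me1, which made 6 of 29 beside 7.06%. The shTLS and control arrays did not overlap, with shTLS lower, for 7 of 29 genes in -/- cells, beside 8.85% of all genes. In +/+ cells this held for 6 of 29, beside 9.26% of all genes. In both genotypes this held for Srebf1, Elovl1 and Agpat2, 3 of 29, beside 3.61% of all genes.

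The difference between the 2 effects, -/- minus +/+, was tested directly and passed for 0 of 29 genes and for 0% of all genes (limma). An unadjusted p under 0.05 was found for 0 of 29 and for 0.268% of all genes. Scd2, for example, read -1.50 in -/- cells and -1.64 in +/+ cells, and Srebf1 read -0.73 in -/- cells and -0.80 in +/+ cells. Elovl1 read -0.61 in -/- cells and -0.82 in +/+ cells, and Agpat2 read -0.76 in -/- cells and -0.86 in +/+ cells. The SE of the difference between the effects was 0.715 for Scd2, 0.394 for Srebf1, 0.321 for Elovl1 and 0.379 for Agpat2, so differences of that size were not detectable with 3 mice per genotype.

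The next comparison asked whether the pathway differed between -/- and +/+ hepatocytes. With shTLS 0 of 29 genes passed, beside 0.0841% of all genes, and 0 had an unadjusted p under 0.05, beside 2.13%. With the control hairpin 0 of 29 passed, beside 0.0893% of all genes, and 2 had an unadjusted p under 0.05 (Fasn and Lpin1), beside 3.29% (limma). The median difference over the 29 genes was 0.07 with shTLS and 0.02 with the control hairpin. The 2 comparisons use different arrays, but of the same 6 mice, so they are no repeats of each other.

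Single genes nevertheless read far apart. G6pdx, the first enzyme of the pentose phosphate pathway, read 12.02, 13.46 and 11.61 in -/- control cells against 10.74, 11.92 and 10.96 in +/+ control cells, a difference of 1.16 (SE 0.637). With shTLS it read 11.65, 13.14 and 11.23 in -/- cells against 10.94, 12.33 and 10.93 in +/+ cells, a difference of 0.61. On every slide the -/- culture was the higher one, and the groups overlapped because mouse 2 of each genotype read high. With the slide number as a block G6pdx had an unadjusted p of 0.00053 among the control arrays and an adjusted p of 0.149 (limma).

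Fasn read 0.42 higher in -/- than in +/+ cells with shTLS and 0.69 higher with the control hairpin, where the groups did not overlap (unadjusted p = 0.0378). Scd2 differed by 0.99 with shTLS and 0.84 with the control hairpin. On the lower side, Lpin2 differed by -0.98 with shTLS and -1.08 with the control hairpin, and Gpam by -0.67 with shTLS and -0.87 with the control hairpin. Me1 differed by -0.71 with shTLS and -0.79 with the control hairpin, and Scd1 by -0.55 with shTLS and -0.53 with the control hairpin. Lpin1, a known target of PGC-1alpha in mouse liver, read 11.67, 10.53 and 11.12 in -/- control cells against 12.13, 12.72 and 11.28 in +/+ control cells, a difference of -0.94 (SE 0.412, unadjusted p = 0.0446), and -0.36 with shTLS. None of these differences passed after adjustment (limma adjusted p = 1.0 without the block for each of them with either vector). With the replicate block and shTLS, 0 of 29 passed beside 0.168% of all genes, and 5 had an unadjusted p under 0.05 beside 6.72% (limma). With the block and the control hairpin, 0 of 29 passed beside 0.158%, and 8 had an unadjusted p under 0.05 beside 8.73% (limma).

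**Figure D3:**
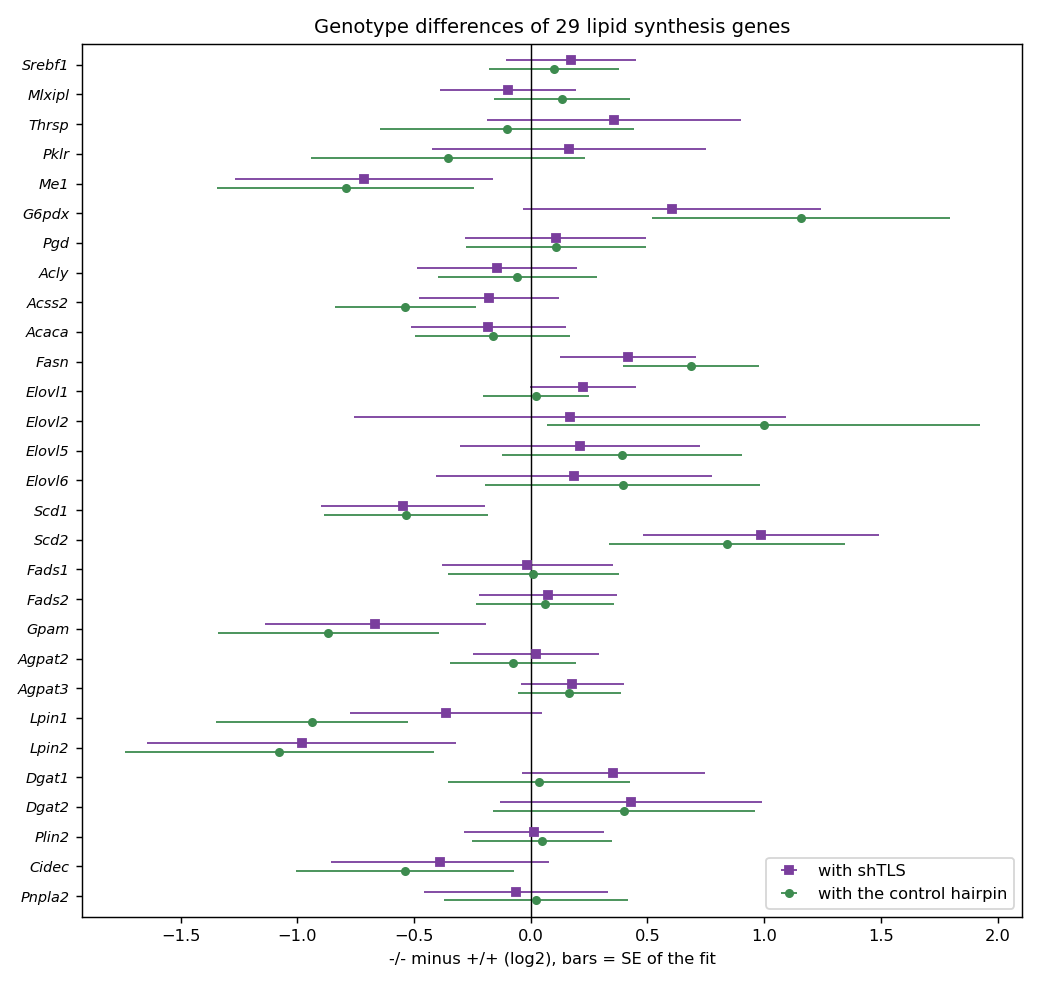
Log2 difference between -/- and +/+ cells for each of the 29 genes, with shTLS (purple squares) and with the control hairpin (green circles), and bars for the SE of the fit. G6pdx lies right of 0 (0.61 with shTLS, 1.16 with the control hairpin) and Lpin2 left of it (-0.98 with shTLS, -1.08 with the control hairpin), and 0 of 29 genes passed the test.

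Mice of the same genotype read far apart for many genes of the list, as they did over all genes tested. The range of the 3 mouse means, each over both cultures of a mouse, exceeded the averaged effect of shTLS in 18 of 29 genes among -/- mice (73.6% of all genes) and in 23 of 29 among +/+ mice (76.5% of all genes). The median range of the 29 genes was 0.619 among -/- mice, beside 0.731 for all genes. Among +/+ mice it was 0.816, beside 0.815 for all genes. Elovl2 had the widest range, with mouse means of 9.25, 8.38 and 9.72 in -/- mice and 9.40, 6.63 and 9.57 in +/+ mice.

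Mouse 2 stood apart in both genotypes for several genes. Me1 had means of 12.10, 12.71 and 11.75 in -/- mice and 12.47, 13.99 and 12.37 in +/+ mice. G6pdx had means of 11.83, 13.30 and 11.42 in -/- mice and 10.84, 12.12 and 10.94 in +/+ mice, and Dgat2 had 15.34, 16.36 and 14.61 in -/- mice and 15.14, 15.51 and 14.42 in +/+ mice. Elovl2 was lowest in mouse 2 of both genotypes, while Me1, G6pdx and Dgat2 were highest there. Over all genes tested, same-numbered arrays of the 2 genotypes had deviations from their group means that correlated by 0.235 to 0.642. Differences shared by number were therefore not limited to the list. The number also marks the independent assay and the slide, so mouse, assay and slide cannot be told apart.

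**Figure D4:**
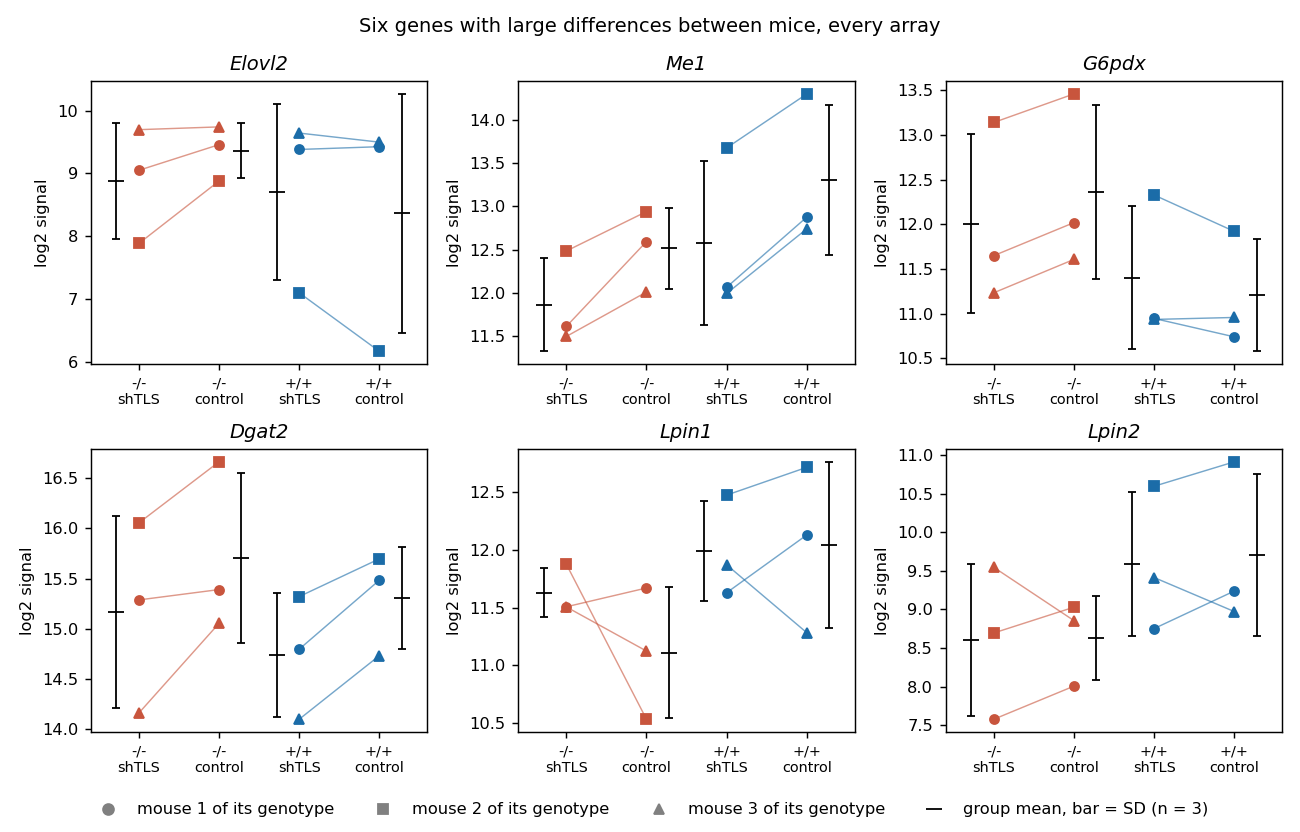
Log2 signal of Elovl2, Me1, G6pdx, Dgat2, Lpin1 and Lpin2 on each array, drawn as in the plot of Srebf1 and the other genes lower in all 6 mice. Mouse 2 (squares) is lowest for Elovl2 and highest for Me1, G6pdx and Dgat2 in every group.

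Markers of the cell types such cultures can hold were read beside these results. The 5 measured of 7 hepatocyte markers had a median of -0.62 with shTLS averaged over genotypes, all 5 negative and 0 called. Alb, 1 of the 5, read only -0.07, and 0.56 under 75th percentile scaling, where 4 of 5 were negative. The summed linear signal of the 5 was 124920 to 158331 with shTLS and 143298 to 195342 with the control hairpin in -/- cells. In +/+ cells it was 183074 to 204874 with shTLS and 160710 to 254590 with the control hairpin. The 11 measured of 13 macrophage markers had a median of -1.10, all 11 negative, with sums of 8520 to 30452 with shTLS and 12548 to 88819 with the control hairpin in -/- cells, and 5499 to 11626 with shTLS and 6866 to 17347 with the control hairpin in +/+ cells. The 5 cholangiocyte markers had a median of -1.26, 4 of 5 negative, with sums of 18501 to 62254 with shTLS and 49253 to 215004 with the control hairpin in -/- cells, and 18932 to 44201 with shTLS and 40521 to 142452 with the control hairpin in +/+ cells. No macrophage or cholangiocyte marker passed without the block. With it 3 of 11 macrophage markers fell (Marco, Cd5l and Clec4f) and 3 of 5 cholangiocyte markers (Krt19, Krt7 and Spp1), beside 13.7% of all genes lower, and 0 hepatocyte, stellate or endothelial markers passed (limma).

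The 5 measured of 6 stellate markers had a median of -0.53, all 5 negative, with sums of 8482 to 25453 with shTLS and 11594 to 27917 with the control hairpin in -/- cells, and 9047 to 11932 with shTLS and 12249 to 14776 with the control hairpin in +/+ cells. The 6 endothelial markers had a median of 0.29, which became -0.58 under spike-in scaling, with sums of 1979 to 9031 with shTLS and 1846 to 5145 with the control hairpin in -/- cells, and 1314 to 3327 with shTLS and 1625 to 3090 with the control hairpin in +/+ cells. Of 4 adipocyte markers only Adipoq was measured, with a dim probe above background on 3 -/- shTLS, 2 -/- control, 2 +/+ shTLS and 1 +/+ control arrays. Its averaged difference with shTLS was 1.87 (limma adjusted p = 0.126, and 0.0392 with the replicate block), and 0.39 with normexp background correction. The Adipoq probe passed the filter only through the -/- shTLS arrays, so its call with the block decides nothing.

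In -/- against +/+ cells all 11 macrophage markers read higher, with a median of 1.43 with shTLS and 2.54 with the control hairpin. The endothelial markers had a median of 0.82 with shTLS, all 6 positive, and 0.34 with the control hairpin, 5 of 6 positive. The stellate markers had a median of 0.35 with shTLS and 0.87 with the control hairpin, 4 of 5 positive with each. The hepatocyte markers had a median of -0.49 with shTLS, 4 of 5 negative, and -0.09 with the control hairpin, 3 of 5 negative. The cholangiocyte markers had a median of -0.41 with shTLS and -0.43 with the control hairpin, 4 of 5 negative with each. None of these markers was called between genotypes with or without the replicate block (limma), while 9 macrophage markers had an unadjusted p under 0.05 with the control hairpin and the block, and 5 with shTLS and the block. The part of these other cells in the differences of the lipid genes was not tested, and in bulk cultures fewer cells of a type and less RNA per cell cannot be told apart.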

How the data were processed

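Total RNA of 12 cultures was measured on 1-colour Agilent arrays of the mouse genome (3 slides with 4 arrays each), read by the authors with Feature Extraction 10.1.1.1. The deposited table holds log2 values, to which the authors applied a floor of 1 and quantile normalization, per the labels' protocols, and these values were used. Its rank correlation with the array files was at least 0.99998. The deposited array files hold each spot's linear intensity after background subtraction, per the file headers, and other columns with flags of 0 or 1. They supplied the calls of spots well above background, the scaling alternatives and the normexp alternative, which used median signals (offset 50).

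Probes entered the tests if some group had them well above background on each of its 3 arrays (24983 of 41174), which gave 19035 genes or accessions, 12809 named. Symbols came through RefSeq accessions (GRCm38.p6, used for names and promoters, while the array headers name another build), which matched 24375 probes and not 16799. Per array 22753 to 26694 probes were above background, 74 to 206 spots were flagged and 0 saturated. Replicates correlated by 0.946 to 0.979, and 0 pairs were identical. The smallest two-sided p that an exact permutation test of 3 against 3 arrays allows is 0.1.

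Tests used limma 3.58.1 in R 4.3.3, with 1 fit of 4 group means to 12 arrays (8 residual and 2.76 prior degrees of freedom), moderated two-sided tests and Benjamini-Hochberg adjustment over 19035 genes per comparison. The fit was tested on simulated data with independent residuals and known differences in the +/+ shTLS arrays only. The simulation left out the correlation of same-numbered arrays given below, so it does not cover the pairing of these cultures. The source names give mouse and assay, so same-numbered cultures of a genotype share a mouse. Same-numbered arrays had deviations from their group means that correlated by 0.235 to 0.672, against 0.0961 at most for different numbers. Alternative fits took the number (also the slide) or the mouse as a block. Other alternatives were normexp, 75th percentile and spike-in scaling, 2 other filters, the mean of all probes, only the groups compared, and each array left out. Every measured member is named, and of other pathway genes those called in the averaged comparison. Elovl3, Elovl7 and the markers that fell with the block were named after their values were seen. The members and lists were chosen with earlier results of these data known. The level of the hairpin's target is not reported here.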

Additional observations from a re-analysis of the deposited data

How the results depend on the processing

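The members' medians kept their sign in every shTLS comparison under all alternatives run. Members called numbered 4 in the averaged comparison (10 with the replicate block, 12 with the mouse as a block, 24 under spike-in scaling), 0 in +/+ cells (5 with the replicate block, 6 with the mouse as a block, 1 under spike-in scaling) and 0 in -/- cells (1 with the mouse as a block), and the replicate block changed no other member's call. With an array left out they numbered 0 to 4 in the averaged comparison and 0 to 0 in the others. Under spike-in scaling 9166 of all 19035 genes were also called lower in the averaged comparison.

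Of all genes, 1571 were called in the averaged comparison, 5514 with the replicate block, 6237 with the mouse as a block, 9765 under spike-in scaling, 1029 with detection required on all 12 arrays and 645 to 1941 with an array left out. The share of higher calls was 62.4%, against 76.1% under 75th percentile and 6.13% under spike-in scaling, 54.7% with detection required on all 12 arrays and 52.8% with the replicate block. In -/- cells 189 were called, against 1183 with the replicate block, 1600 with the mouse as a block, 110 with normexp, 91 with detection required on all 12 arrays and 93 to 211 with an array left out. In +/+ cells 229 were called, against 2378 with the replicate block, 2978 with the mouse as a block, 133 with normexp, 352 under 75th percentile scaling, 349 under spike-in scaling, 111 with detection required on all 12 arrays, 48 with only the groups compared and 98 to 309 with an array left out.

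Between -/- and +/+ cells with shTLS 16 were called, against 32 with the replicate block, 2 with detection required on all 12 arrays and 10 to 13 with an array left out. With the control hairpin 17 were called, against 30 with the replicate block, 3 with detection required on all 12 arrays, 7 with only the groups compared and 10 to 14 with an array left out. For the difference between the effects 0 were called, and 0 to 1 with an array left out.

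The members' median in the averaged comparison was -0.35 under 75th percentile and -1.25 under spike-in scaling, and -0.47 to -0.37 with an array left out. In -/- cells it was -0.37 with normexp, -0.41 under 75th percentile scaling, -1.28 under spike-in scaling and -0.61 to -0.42 with an array left out. In +/+ cells it was -1.26 under spike-in scaling and -0.49 to -0.41 with an array left out. Between genotypes it was 0.23 with shTLS under spike-in scaling, beside 0.22 for all genes. With an array left out it was -0.0055 to 0.13 with shTLS, -0.10 to 0.06 with the control hairpin and -0.070 to 0.19 for the difference between the effects. The causes of these changes were not tested. The signal over background of Acacb and Pnpla3 was too low to compare them.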

Other observations

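A wider list of 65 further genes of fatty acid and triglyceride metabolism, covering processing of SREBP, citrate export, fatty acid activation, lipid droplets and lipolysis, was read in the same fit, and 62 passed the filter on dim probes. With shTLS averaged over genotypes 4 of 62 fell and 0 rose, beside 3.1% and 5.15% of all genes (limma). The median was -0.28, beside -0.016 for all genes, and 43 of 62 were negative, beside 51% of all genes. Under spike-in scaling the median was -1.10, beside -0.81 for all genes. Mbtps2, the site-2 protease that releases active SREBP, fell by 0.80 on the log2 scale (limma adjusted p = 0.0134) and Slc25a1, the mitochondrial citrate carrier, fell by 0.67 (adjusted p = 0.0408). Cideb, a droplet protein of hepatocytes, fell by 1.63 (3.09-fold, adjusted p = 0.0156) and Fitm2, an endoplasmic reticulum protein of droplet formation, fell by 0.97 (adjusted p = 0.0289). All 4 were lower without overlap between shTLS and control arrays in either genotype, as were 3.61% of all genes tested. A further gene of the wider list that was not called did so too. The 4 were picked by the test on these same arrays, so their lack of overlap adds no support. With normexp background correction the difference was -0.89 for Cideb and -0.33 for Mbtps2.

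With the replicate block 18 of 62 fell and 3 rose, beside 13.7% and 15.3% of all genes (limma). Among the 3, Elovl3, an elongase of saturated fatty acids, read higher with shTLS in all 6 mice, with an averaged difference of 2.58 (adjusted p = 0.00371 with the replicate block, 0.0999 without it). Its probe was above background on all 6 shTLS arrays and on 3 of 6 control arrays, so the size of its difference is uncertain. The probe passed the filter only through the shTLS groups, where it read high, so neither its test nor its direction in the 6 mice decides anything. The difference was 0.51 with normexp background correction. Elovl3 stands outside the 4 elongases described above, each of which had a negative averaged difference, though Elovl2 read only -0.07 and was 0.34 in +/+ cells. Elovl7, another elongase of the wider list, read -0.83 and was lower in all 6 mice.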
